A study of Mus musculus with 4 samples.

Results

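Autophagy and mitophagy genes were examined in LSK cells, the stem and progenitor fraction of bone marrow that lacks lineage markers and carries Sca1 and c-Kit, comparing wild-type (WT) animals with animals that lack SRC-3 (KO). The members were the genes whose symbol starts with Atg and a digit, and 25 further genes chosen by name for the steps from the kinase that starts autophagy to the lysosome and for mitophagy. Probe sets had to be assigned to a single gene, and a gene with several was represented by its brightest one. This gave 40 members of 22180 genes, 18 by the Atg pattern and 22 of the 25 by name. The other 3 are not analysed here, among them Optn and Bnip3l, which had no probe set assigned to them alone in the annotation used. Of the 40 members 39 had 1 probe set, and Gabarap had 2.

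Total RNA of 4 samples was hybridised to 4 Affymetrix arrays, 2 for WT (wild-type genotype) and 2 for KO (SRC-3 knockout genotype). The mice were male and 8 weeks old, were housed free of specific pathogens and received no agent according to the labels. Red cells were lysed and LSK cells were sorted by flow cytometry from femur and tibia marrow. The allele, the mouse strain and the number of mice behind each sample are not stated by the labels, so a p-value reflects how far apart these samples were, in part perhaps for technical reasons. Levels are RMA log2 values, and a difference of 1 is a 2-fold change. Levels of different probe sets are not set against each other, because probes differ in how strongly they bind.

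Autophagy encloses cell contents in a double membrane, the autophagosome, and delivers them to lysosomes for breakdown. The Ulk kinase complex starts it, a lipid kinase complex around Becn1 marks the membrane, ubiquitin-like conjugation attaches proteins of the Atg8 family (LC3 and GABARAP) to lipid, and cargo receptors tether the load to them. Mitophagy removes mitochondria by the same route, through the kinase PINK1 or through receptors in the mitochondrial membrane such as BNIP3 and FUNDC1. In hematopoietic stem cells autophagy is known to keep the number and activity of mitochondria low, and it clears mitochondria from maturing red cells.

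The labels were checked first. Ncoa3, which encodes SRC-3, was at 7.76 and 7.05 on the WT arrays and at 5.35 and 5.09 on the KO arrays, a fall of 4.55-fold (adjusted p = 0.038). Of 10 listed LSK and progenitor markers 8 were analysed, and all lay above the median gene of the arrays, whose level was 4.32. Kit was at 10.33 and 9.65 in WT and at 9.43 and 9.34 in KO, and Cd34 at 10.86 and 10.73 against 10.15 and 10.08. Ly6a, which encodes Sca1, is not analysed here. Marker lists of other cells were then read, and the erythroblast list was the one with genes past the adjusted threshold in limma. The mean log2 level of 9 erythroblast markers was 5.12 and 5.08 on the WT arrays and 6.88 and 6.90 on the KO arrays, with 5 markers higher past the threshold, Car1, Rhag, Ermap, Klf1 and Tspan33. Slc4a1, the red cell anion exchanger on the same list, had the opposite direction at -0.96 ± 0.24 (SE, limma adjusted p = 0.13). The other erythroblast markers on the list, the globins among them, are not analysed here. The mean of 10 neutrophil markers was 6.28 and 6.51 in WT and 7.23 and 7.24 in KO, and that of 11 macrophage markers was 4.55 and 4.51 against 4.70 and 4.69. The mean of 11 markers of lymphoid cells was 4.28 and 4.53 in WT and 4.29 and 4.24 in KO, and that of the 8 LSK and progenitor markers was 8.60 and 8.29 against 8.02 and 7.97. No marker was at 0, as RMA values of dim probe sets do not reach it, and the lowest values were 2.94, 4.12, 2.59 and 2.21 in the erythroblast, neutrophil, macrophage and lymphoid lists. The part of these cells in the differences below was not tested. In sorted bulk samples a different share of a cell type and a different amount of RNA per cell cannot be told apart.

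No autophagy or mitophagy gene differed between KO and WT past the threshold, a limma p-value adjusted by Benjamini-Hochberg over all 22180 genes under 0.05. Of all genes 0.509% passed it. The smallest adjusted p among the members was 0.13, for Ulk2. At an unadjusted p under 0.05, 2 members were higher in KO, Lamp1 and Bnip3, and 3 were lower, Ulk1, Ulk2 and Map1lc3b. Of all genes 10.5% were higher and 6.93% lower by that rule, and of the 11090 genes at or above the median level, which include 36 of the 40 members, 17.5% were higher and 9.55% lower. The members' share, 12.5% in both directions together, was thus below the 17.4% of all genes. The mean was higher in KO for 20 members and lower for 20, with a median difference of -0.0080 on the log2 scale, against -0.0010 over all genes and 0.045 over genes at or above the median level. Differences ran from -0.79 to 0.47 with standard errors (SE) of 0.14 to 0.35, and the median absolute difference was 1.17-fold. Only Ulk1 and Ulk2 reached 1.5-fold, where 11.3% of all genes did.

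These differences lie where 2 arrays per group show little. In simulated data 14.7% of genes given a log2 change of 1 were called, and 91.4% of those given a change of 2. The simulated spread was drawn from the fit to these arrays and was equal for WT and KO. In the real data the WT arrays lay farther apart for most genes, so these shares are approximate. By them, differences below 2-fold, as all 40 were, were mostly not detectable one by one. A missing call does not show that a gene was unchanged.

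**Figure D1:**
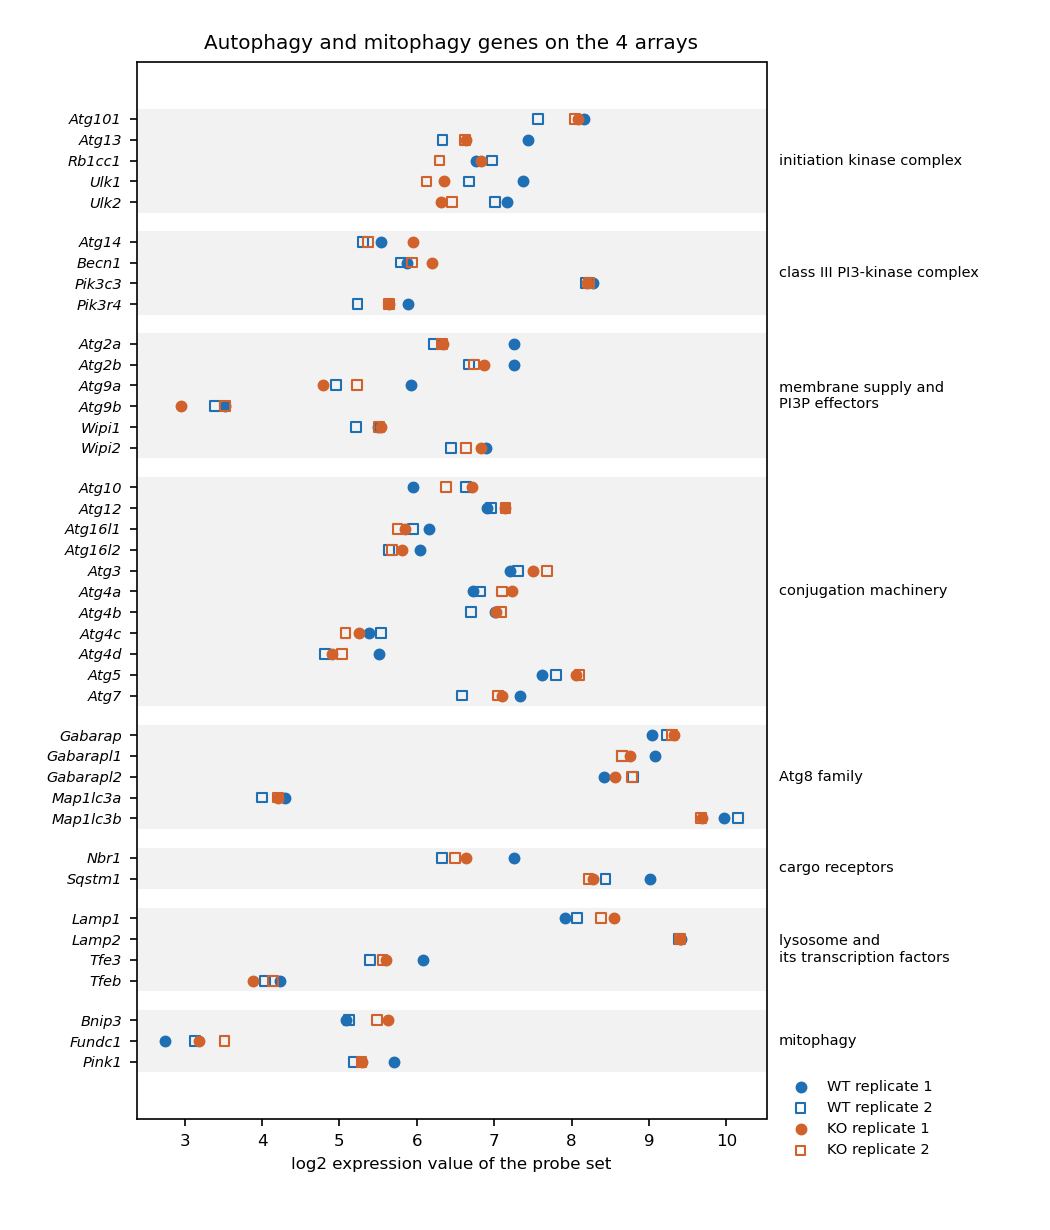
Log2 expression value (horizontal axis) of each of the 40 autophagy and mitophagy genes (rows, in 8 role groups shaded grey) on the 4 arrays, with WT in blue, KO in orange, replicate 1 as filled circles and replicate 2 as open squares. For 23 genes the values of the genotypes overlap, and the blue symbols are often farther apart than the orange ones, as for Atg13 at 7.43 and 6.33 in WT and 6.63 and 6.62 in KO.

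Promoter sequences are given for the 5 members at an unadjusted p under 0.05. A site is marked that the lysosomal transcription factors Tfeb and Tfe3 are known to bind. Whether these or other factors bound it in these cells was not tested. The sequences come from RefSeq (GRCm38.p6) and reach from 250 bases before to 50 bases after a gene's start, 5′ to 3′ on the gene's strand. Capitals mark the E-box CACGTG, which reads the same on both strands and is the core of the lysosomal CLEAR element. The motif was chosen with the members' values already known. Lamp1 (GRCm38.p6 chr8:13158911-13159210, plus strand) held 4 E-boxes, with their middles from 58 to 12 bases before the gene's start, and Bnip3 (chr7:138909457-138909756, minus strand) held 1. Ulk1 (chr5:110810032-110810331, minus strand), Ulk2 (chr11:61855043-61855342, minus strand) and Map1lc3b (chr8:121590188-121590487, plus strand) held 0.
Lamp1: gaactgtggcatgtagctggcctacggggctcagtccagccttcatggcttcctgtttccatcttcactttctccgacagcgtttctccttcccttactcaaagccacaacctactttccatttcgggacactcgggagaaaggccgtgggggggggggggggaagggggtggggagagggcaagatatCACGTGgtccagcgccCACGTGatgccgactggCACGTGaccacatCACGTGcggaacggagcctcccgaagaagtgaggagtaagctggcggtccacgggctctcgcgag
Bnip3: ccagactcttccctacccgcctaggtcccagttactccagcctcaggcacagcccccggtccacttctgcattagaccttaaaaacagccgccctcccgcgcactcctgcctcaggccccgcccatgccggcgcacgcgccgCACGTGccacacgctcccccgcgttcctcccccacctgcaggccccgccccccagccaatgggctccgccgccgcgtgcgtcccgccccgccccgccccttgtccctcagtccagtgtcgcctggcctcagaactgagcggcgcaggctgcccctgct
Ulk1: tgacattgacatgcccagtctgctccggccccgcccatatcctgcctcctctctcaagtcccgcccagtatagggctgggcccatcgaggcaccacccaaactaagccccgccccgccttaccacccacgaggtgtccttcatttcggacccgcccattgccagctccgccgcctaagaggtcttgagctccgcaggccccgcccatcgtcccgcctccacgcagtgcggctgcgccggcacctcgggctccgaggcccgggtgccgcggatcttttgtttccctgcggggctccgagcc
Ulk2: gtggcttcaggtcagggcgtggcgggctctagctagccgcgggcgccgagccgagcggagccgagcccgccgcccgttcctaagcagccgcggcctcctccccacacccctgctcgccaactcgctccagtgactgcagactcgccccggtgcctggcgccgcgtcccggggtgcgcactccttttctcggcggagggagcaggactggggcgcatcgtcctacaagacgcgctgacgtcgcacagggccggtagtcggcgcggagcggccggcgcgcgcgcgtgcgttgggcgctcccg
Map1lc3b: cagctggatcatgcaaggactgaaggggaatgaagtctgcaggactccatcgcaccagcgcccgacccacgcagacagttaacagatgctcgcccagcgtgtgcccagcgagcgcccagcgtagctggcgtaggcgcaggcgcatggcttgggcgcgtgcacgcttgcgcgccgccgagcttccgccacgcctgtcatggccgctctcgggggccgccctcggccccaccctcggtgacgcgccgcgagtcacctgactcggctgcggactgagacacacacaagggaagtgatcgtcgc

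The table of promoters held 34 of the 40 members, and in 6 of these 34 genes, or 17.6%, at least 1 promoter held an E-box. Such a promoter was found for 8.09% of all 27025 genes with an entry, and for 11.96% of measured genes at or above the median level. Members with an E-box were Lamp1, Bnip3 and also Atg3, Atg5, Atg7 and Atg14, which are shown as 60 bases around the site to compare what flanks it. The windows are Atg3 (chr16:45158708-45158767, plus strand), Atg5 (chr10:44268298-44268357, plus strand), Atg7 (chr6:114670937-114670996, plus strand) and Atg14 (chr14:47568403-47568462, minus strand), in GRCm38.p6.
Atg3: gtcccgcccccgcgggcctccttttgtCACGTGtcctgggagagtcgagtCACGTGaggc
Atg5: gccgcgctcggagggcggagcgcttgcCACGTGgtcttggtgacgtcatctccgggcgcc
Atg7: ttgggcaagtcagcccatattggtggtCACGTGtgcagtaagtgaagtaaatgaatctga
Atg14: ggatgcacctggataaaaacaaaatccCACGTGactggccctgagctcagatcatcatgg

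All 6 members with an E-box had a higher mean in KO, by 0.11 to 0.47 with a median of 0.35, whereas 11 of the 28 without it had a higher mean, with a median of -0.16. For genes as bright as the median or brighter the gap was small, with a median of 0.084 for 1054 genes that held the E-box and 0.042 for those that did not, and with 59.8% and 54.2% of them higher in KO. The count of 6 is a description of genes picked by name and was not tested. Without WT replicate 2 it was 5 of 6, because Atg7 was then lower, and without KO replicate 1 it was 5 of 6, because Atg14 was. Without WT replicate 1 all 6 were higher, and so were 19 of the 28 others. The longer form TCACGTGA was in 1 member promoter, that of Atg3, and in 0.974% of all 32851 promoters, where CACGTG was in 7.15%. The full CLEAR palindrome, which adds G before and C after that form, was in 0 member promoters and 0.326% of all, and GTAAACA, a core site of the FOXO factors searched on both strands, was in 0 and 3.65%.

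The kinase complex that starts autophagy held the largest differences. Its kinases were both lower in KO at an unadjusted p under 0.05 and its 3 other subunits were not. Ulk1 (gene identifier 22241, probe set 17451140), the main initiating kinase, was at 7.37 and 6.68 on the WT arrays and at 6.35 and 6.12 on the KO arrays. Both KO values lay below both WT values, but the WT arrays were 0.70 apart. Its difference was -0.79 ± 0.26 (SE, limma adjusted p = 0.20), or 1.73-fold. Ulk2 (gene identifier 29869, probe set 17263893), its close relative, was at 7.16 and 7.01 in WT and at 6.32 and 6.46 in KO. The groups did not overlap and the arrays of each genotype lay within 0.15 of each other. Its difference was -0.70 ± 0.18 (SE, limma adjusted p = 0.13), or 1.62-fold. Leaving out any single array kept the difference of Ulk2 between -0.77 and -0.62, while that of Ulk1 ran from -0.44 without WT replicate 1 to -1.14 without WT replicate 2.

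The scaffold genes of that complex did not separate the genotypes. Rb1cc1, which encodes the scaffold FIP200, was at 6.77 and 6.98 in WT and at 6.83 and 6.29 in KO. Atg13, which links the kinase to the scaffold, was at 7.43 and 6.33 in WT and at 6.63 and 6.62 in KO, so both KO arrays lay between the WT arrays. Atg101, the partner of Atg13, was at 8.15 and 7.57 against 8.08 and 8.04, again with KO between the WT values. Of the 5 genes of the complex 4 had a lower mean in KO, with a median of -0.31. The median stayed below 0 whichever array was left out and after quantile normalization or centring of the arrays (-0.77 to -0.18). The other settings tried could not change it.

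Genes of the lipid kinase complex, which makes the phosphatidylinositol phosphate that marks the growing membrane, showed small differences. Atg14, the subunit that directs the complex to autophagy, had the largest of the 4 at 0.24 ± 0.24 (SE), with 5.54 and 5.30 in WT and 5.95 and 5.37 in KO. The groups overlapped. Becn1, the regulatory subunit, was at 5.87 and 5.80 in WT and at 6.20 and 5.94 in KO, the single member of the complex whose groups did not overlap. Pik3c3, the catalytic subunit, ranged from 8.19 to 8.28 over all 4 arrays, and Pik3r4, its regulatory kinase-like subunit, was at 5.64 on both KO arrays, between WT values of 5.89 and 5.23.

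Genes that bring membrane to the autophagosome or bind the marked lipid included none at an unadjusted p under 0.05, and Wipi1 was the gene whose genotypes did not overlap. Atg9a, the membrane-spanning lipid scramblase, had the largest difference of the 6, -0.44 ± 0.34 (SE), with 5.93 and 4.96 in WT and 4.79 and 5.22 in KO. The KO value of 5.22 lay between the WT values. Atg2a, a lipid transfer protein that works with it, was at 7.26 and 6.22 in WT and at 6.34 and 6.32 in KO. The lipid binding genes Wipi1 and Wipi2 had differences of 0.17 and 0.063, and Atg2b and Atg9b of -0.16 and -0.22. The median of this group was -0.19, and it was 0.12 without WT replicate 1.

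The conjugation machinery, the enzymes that join Atg12 to Atg5 and the Atg8 proteins to lipid, had a higher mean in KO for 7 of 11 genes. Their median was 0.20, with 0 members at an unadjusted p under 0.05. All 11 were at or above the median level, where 6041 of 11090 genes had a higher mean. Of those 11090 genes 3819 had both KO arrays above both WT arrays, and 2739 had both below. Atg4a, a protease that trims Atg8 proteins, was at 6.73 and 6.81 in WT and at 7.23 and 7.10 in KO. Both KO arrays lay above both WT arrays, by 0.40 ± 0.17 on average (SE, limma adjusted p = 0.30). The same order held for Atg5 at 0.37 ± 0.16, for Atg3, the enzyme that transfers Atg8 proteins to lipid, at 0.33 ± 0.17, for Atg12 at 0.21 and for the protease gene Atg4b at 0.20. Atg5 was at 7.62 and 7.80 in WT and at 8.05 and 8.10 in KO. Atg4c and Atg16l1 had the opposite order, at -0.29 ± 0.18 and -0.26 ± 0.18, with both KO arrays below both WT arrays. Groups overlapped for Atg7, the activating enzyme of both conjugation branches (7.34 and 6.59 against 7.10 and 7.05), and for Atg10, Atg4d and Atg16l2. The median of the 11 genes stayed above 0 whichever array was left out and after quantile normalization or centring. It ran from 0.047 without WT replicate 2 to 0.33 with arrays centred on their medians. The other settings tried could not change it.

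Among the Atg8 family, the ubiquitin-like proteins that coat the autophagosome, Map1lc3b (gene identifier 67443, probe set 17506306) was the member at an unadjusted p under 0.05. This gene, for LC3B, was at 9.97 and 10.15 on the WT arrays and at 9.69 and 9.67 on the KO arrays. All KO values lay below all WT values, with a difference of -0.38 ± 0.14 (SE, limma adjusted p = 0.23), or 1.30-fold. With arrays centred on their medians it was -0.25 (limma unadjusted p = 0.15). Without the intensity trend its limma unadjusted p was 0.056. Map1lc3a, for LC3A, was at 4.30 and 4.0 in WT and at 4.21 on both KO arrays, all below the median gene. Gabarap was at 9.04 and 9.23 in WT and at 9.32 and 9.30 in KO, a difference of 0.17 ± 0.15 without overlap. Its other probe set, which is dimmer, read 5.01 and 5.04 in WT and 5.86 and 5.41 in KO, a difference of 0.61 ± 0.21 (SE, limma adjusted p = 0.22 over all probe sets), so the probe sets had the same direction and different sizes. Gabarapl1 was at 9.07 and 8.65 against 8.76 and 8.65, and Gabarapl2 at 8.41 and 8.79 against 8.56 and 8.78, both with overlapping groups. Family members are similar in sequence, and whether their probes take up each other's transcripts was not tested.

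Both cargo receptors analysed had a lower mean in KO. Sqstm1, for p62, which carries ubiquitin-tagged cargo to LC3, was at 9.01 and 8.44 in WT and at 8.27 and 8.22 in KO. The KO arrays lay below both WT arrays, and WT replicate 2 lay much nearer to them than WT replicate 1. Its difference was -0.48 ± 0.22 (SE, limma adjusted p = 0.33), with -0.19 without WT replicate 1 and -0.77 without WT replicate 2. Nbr1, a related receptor, was at 7.26 and 6.33 in WT and at 6.63 and 6.49 in KO, with KO between the WT values.

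Of the lysosomal membrane proteins and their transcription factors, Lamp1 (gene identifier 16783, probe set 17499279) was higher in KO at an unadjusted p under 0.05. This gene, for an abundant glycoprotein of the lysosomal membrane, was at 7.91 and 8.07 in WT and at 8.54 and 8.38 in KO. The KO arrays lay above the WT arrays with like gaps within each genotype, and the difference was 0.47 ± 0.17 (SE, limma adjusted p = 0.22), or 1.39-fold. Lamp2, its relative, was at 9.41 and 9.38 against 9.41 and 9.40, a difference of 0.0071 ± 0.14. Tfeb and Tfe3, the factors that switch on lysosomal and autophagy genes, had differences of -0.11 ± 0.18 and -0.15 ± 0.25 with overlapping groups. Tfeb was dim, from 3.89 to 4.23 over the arrays, below the median gene, so a difference could be hard to see. The difference between Lamp1 and Lamp2 was not tested.

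For mitophagy, both outer-membrane receptors analysed had KO arrays above WT arrays, and Pink1 did not. Bnip3 (gene identifier 12176, probe set 17497421), a receptor known to be induced by low oxygen, was at 5.08 and 5.12 in WT and at 5.63 and 5.48 in KO. Its difference was 0.45 ± 0.17 (SE, limma adjusted p = 0.25), or 1.37-fold, and lay between 0.38 and 0.53 whichever array was dropped. Fundc1, the other receptor, was at 2.75 and 3.13 in WT and at 3.18 and 3.52 in KO, a difference of 0.41 ± 0.21 (SE, limma adjusted p = 0.38). It was 0.22 without WT replicate 1, 0.60 without WT replicate 2 and 0.24 without KO replicate 2. Its lower KO value was barely above its higher WT value, and all 4 values lay below the median gene. Pink1, the kinase that labels damaged mitochondria, was at 5.71 and 5.19 in WT and at 5.29 on both KO arrays, with KO between the WT values.

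**Figure D2:**
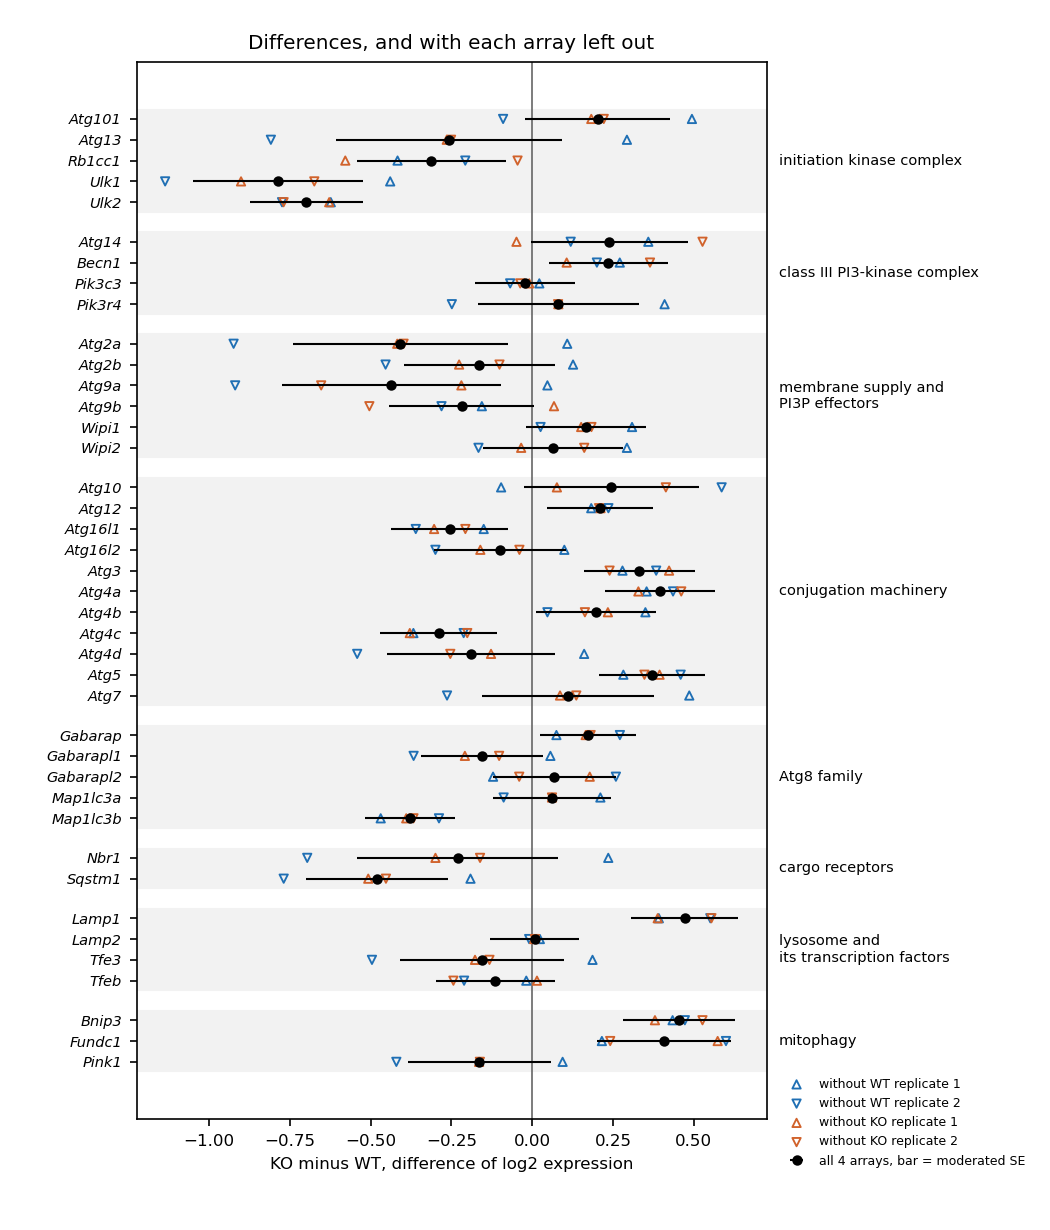
Difference of log2 expression, KO minus WT (horizontal axis), for the 40 genes in their 8 role groups. Black points with bars are the values from all 4 arrays with the moderated SE, and open triangles are the values with 1 array left out (blue for a WT array, orange for a KO array). Ulk2, Map1lc3b, Lamp1 and Bnip3 keep their triangles near the point, while for Atg13, Atg2a and Nbr1 the blue triangles lie on both sides of 0.

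The WT arrays differed from each other more than the KO arrays for most members. The gap between replicates was larger in WT for 30 of the 40 genes, with a median of 0.30 in WT and 0.12 in KO. Over all genes it was larger in WT for 60.2%, and over genes at or above the median level for 73.7%, with medians of 0.28 and 0.11. For 25 members, or 62.5%, the gap between the WT arrays exceeded the difference between genotypes. It did so for 52.2% of all genes and 48.9% of genes at or above the median level. WT replicate 1 was the higher WT array for 27 of the 40 members, and for 59.2% of genes as bright as the median or brighter. Its signed difference from WT replicate 2 had a median of 0.23 over all 40 members, whichever array was higher. Over all of those brighter genes this signed median was 0.093. Atg13, Atg2a, Atg9a and Nbr1 had the largest gaps, of 1.10, 1.03, 0.97 and 0.93, all with WT replicate 1 higher. All 6 genes of membrane supply and lipid binding and all 4 of the lipid kinase complex were higher on WT replicate 1 than on WT replicate 2.

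**Figure D3:**
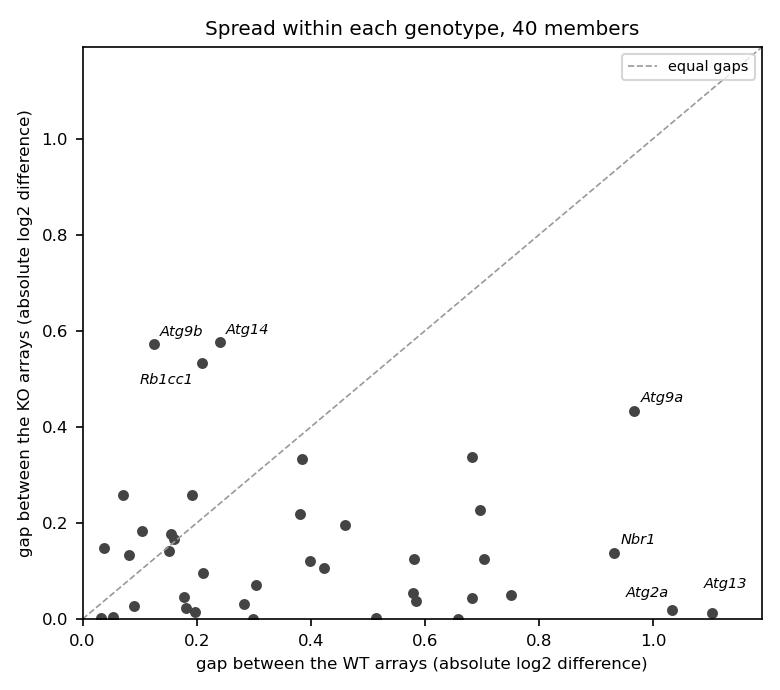
Absolute log2 difference between the WT arrays (horizontal axis) and between the KO arrays (vertical axis) for the 40 genes, with a dashed line where the gaps are equal. Of the points 30 lie below the line, and Atg13, at 1.10 between the WT arrays and 0.01 between the KO arrays, lies farthest to the right.

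Results for these genes therefore turned on which WT array was kept. Without WT replicate 2 limma called 9 members past the adjusted threshold, 7 lower (Ulk1, Ulk2, Atg13, Atg2a, Nbr1, Sqstm1 and Map1lc3b) and 2 higher (Atg5 and Lamp1). Without WT replicate 1 it called 2, Atg101 higher and Map1lc3b lower. Map1lc3b was the member called in both, at -0.29 and -0.47. Its call in both is not repeated evidence, as each fit used the same KO arrays, which were 0.022 apart for this gene. Over all genes the same fits called 3002 and 1754, because the spread was then estimated from the KO arrays alone, with the lone WT array assumed to vary like them. Atg13, Atg2a and Nbr1 changed sign between these fits, from -0.81, -0.92 and -0.70 without WT replicate 2 to 0.29, 0.11 and 0.24 without WT replicate 1. These 3 genes were picked for that change after their values were seen. Without either KO array limma called 0 members at the adjusted threshold. At an unadjusted p under 0.05 there were then 0 members without KO replicate 1, where 6.63% of all genes passed, and 1 without KO replicate 2, where 8.61% did, and 0 genes in all were called at the adjusted threshold in either fit. The direction was the same in all 4 of these fits for 18 members, 11 higher and 7 lower in KO, and changed for 22. How many of all genes kept theirs was not counted.

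The values of the genotypes overlapped for 23 of 40 members, or 57.5%, where they did for 52.0% of all genes. Both KO arrays lay above both WT arrays for 11 members and below them for 6, where 25.1% and 22.9% of all genes did so. The 11 were Becn1, Wipi1, Atg3, Atg4a, Atg4b, Atg5, Atg12, Gabarap, Lamp1, Bnip3 and Fundc1, and the 6 were Ulk1, Ulk2, Atg4c, Atg16l1, Map1lc3b and Sqstm1. Of genes as bright as the median or brighter, overlap was seen for 55.6% of the 36 members there and 40.9% of all such genes, so the arrays did not separate the members more often than other genes.

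Related genes from 4 lists gave the setting. None passed the adjusted threshold in limma. By the unadjusted rule, 2 of 27 other genes of the autophagy machinery were higher and 4 lower, with a median of -0.21. Of genes at or above the median level, which include 26 of the 27, 17.5% were higher and 9.55% lower. Bcl2, whose protein binds and restrains Beclin 1, was at 10.04 and 9.996 in WT and at 9.51 and 9.46 in KO, and Tbc1d5, a regulator of Rab7, was at 9.15 and 8.77 against 8.40 and 8.29. Stx17 and Vamp8, SNARE proteins that fuse the autophagosome with the lysosome, were at 5.53 and 5.49 against 6.00 and 6.00, and at 10.26 and 10.33 against 10.61 and 10.67. In all 4 genes the groups did not overlap. These 4 were named for the smallest p of their list, so the lack of overlap followed largely from that choice. Groups overlapped for 8 of the 27 listed genes and for 40.9% of genes of median level or brighter.

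At an unadjusted p under 0.05, 3 of 20 other mitophagy genes were higher and 1 was lower, with a median of 0.080 that was -0.18 without WT replicate 2. All 20 were at or above the median level, where 17.5% of genes were higher and 9.55% lower. Vdac1, a channel of the outer membrane, was at 7.05 and 7.0 in WT and at 7.71 and 7.72 in KO, a difference of 0.68 ± 0.16 (SE, limma adjusted p = 0.12). Tomm7, which helps to hold PINK1 at the outer membrane, was at 7.97 and 8.05 against 8.48 and 8.51. The phosphatase gene Pgam5 was at 5.34 and 5.39 against 5.77 and 5.84, and the ubiquitin ligase gene Huwe1 was the lower one, at 9.08 and 8.71 against 8.41 and 8.36.

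Of 37 lysosomal genes 9 were higher and 1 was lower by the same rule, with a median of 0.18, and 28 had a higher mean in KO. All 37 were at or above the median level, where 17.5% of genes were higher and 9.55% lower by that rule. The mean was higher in KO for 6041 of those 11090 genes. The proton pump subunit Atp6v1c1 was at 6.08 and 6.05 in WT and at 6.90 and 7.04 in KO, a difference of 0.90 ± 0.17 (SE, limma adjusted p = 0.086). Its fellow subunit Atp6v1e1 was at 9.08 and 8.68 against 9.61 and 9.66, and Scarb2, the receptor that carries glucocerebrosidase to lysosomes, at 6.36 and 6.32 against 6.88 and 7.01. Npc1, a lysosomal cholesterol transporter, was the lower gene, at 6.24 and 5.92 against 5.46 and 5.24. Without WT replicate 1 the list's median was 0.35 with 21 genes higher, and without WT replicate 2 it was 0.078 with 14 higher and 7 lower.

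Of 39 regulators of autophagy in the mTOR, AMPK, FOXO and MiT pathways 6 were higher by the unadjusted rule and 5 were lower, with a median of -0.043. Of genes at or above the median level, which include 37 of the 39, 17.5% were higher and 9.55% lower. Foxo1, a transcription factor that can drive autophagy genes, was at 5.70 and 5.63 in WT and at 4.98 and 4.80 in KO, a difference of -0.78 ± 0.18 (SE, limma adjusted p = 0.11). Tfec, a relative of Tfeb, was at 8.35 and 8.73 against 9.26 and 9.21, a difference of 0.70 ± 0.18 (SE, limma adjusted p = 0.13). Lamtor2 and Lamtor4, subunits of the Ragulator complex that holds mTORC1 at the lysosome, had differences of 0.51 ± 0.16 and 0.58 ± 0.18. No list of genes was tested as a set, and the median over all genes was -0.0010.

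**Figure D4:**
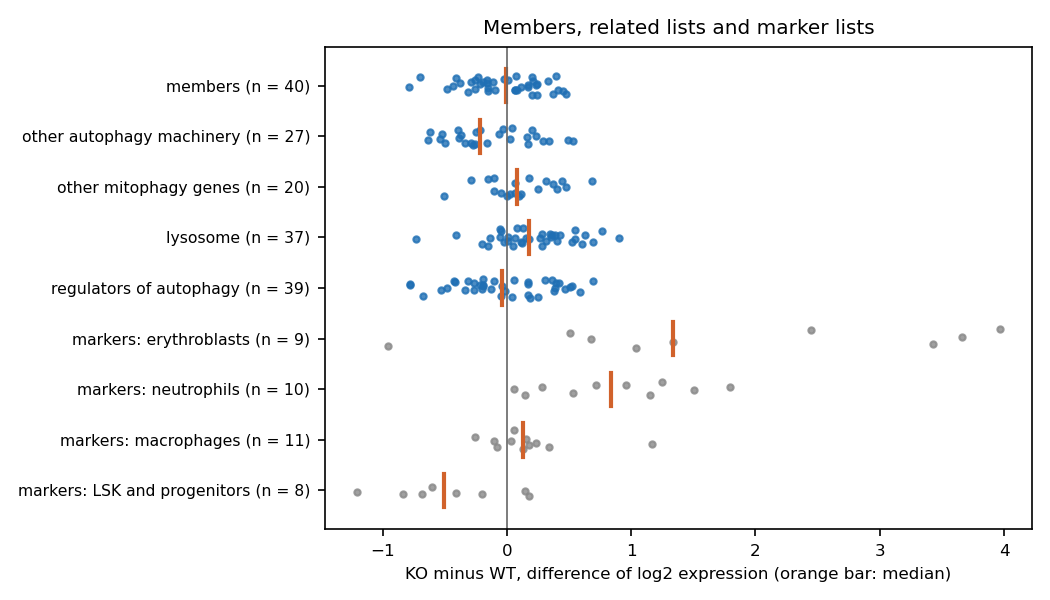
Difference of log2 expression, KO minus WT (horizontal axis), of single genes (points) in the members, 4 related lists (blue) and 4 marker lists (grey), with the median as an orange bar. The members centre on -0.0080 and stay between -0.79 and 0.47, while erythroblast markers reach 3.97 and neutrophil markers 1.80.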

How the data were processed

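Expression was measured on 4 Affymetrix arrays, 2 of WT and 2 of KO. The authors deposited log2 values for 41345 probe sets. RMA and Affymetrix Expression Console 1.2.1 are named, per the submitters' processing notes, without settings. Genome build, detection calls and scan dates were not given in the sources used here, so background and array batches could not be checked. The platform annotation named 23521 probe sets with 1 gene and 1814 with several, and the latter were left out. Each gene took its brightest probe set, with no filter on low values.

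KO was compared with WT over all 22180 genes in limma 3.58.1 (R 4.3.3), with lmFit and eBayes with an intensity trend, two-sided, and Benjamini-Hochberg adjustment. Errors of group differences are moderated SEs. The fit was tested on simulated data. Genes named were those at an unadjusted p under 0.05, the Atg8 and mitophagy genes and the largest difference per role group. From related lists the 4 genes of smallest p were named and from marker lists up to 6 of the brightest or of smallest p. Other names were chosen after values were seen. Members, lists and tests were chosen with earlier results of these data known. Sequences were matched by symbol. The number of arrays limits the precision.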

Additional observations from a re-analysis of the deposited data

How the results depend on the processing

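Leaving out 1 array at a time, the count of members past the adjusted threshold ran from 0 to 9, that at an unadjusted p under 0.05 from 0 to 9 higher and from 0 to 14 lower, the members' median from -0.21 to 0.14 and the count over all genes at the adjusted threshold from 0 to 3002. The share at an unadjusted p under 0.05 ran from 0% to 52.5% of members and from 6.63% to 26.3% of all genes. Over the same fits the difference changed sign for Atg9a (-0.92 to 0.047), Gabarapl1 (-0.37 to 0.056), Gabarapl2 (-0.12 to 0.26), Pink1 (-0.42 to 0.094), Map1lc3a (-0.089 to 0.21) and Atg14 (-0.049 to 0.53). The other 9 of 15 named members kept their direction in all of the 12 alternatives that gave a value. Several of these could not change it. The replicate block, the other eBayes settings, single probe sets and the test of brighter genes alone left each difference as it was. Averaging probe sets altered only Gabarap among them. Named members were also picked in part for a small p or a large difference, which favours a kept direction. At the adjusted threshold limma called 0 members and 189 genes after quantile normalization, 0 and 362 with arrays centred on their medians, and 0 and 289 when only genes at or above the median level were tested. At an unadjusted p under 0.05, quantile normalization gave 4 members higher and 4 lower (20% of members, 18.7% of all genes) and centring gave 6 higher and 1 lower (17.5% and 19.9%). Centring shifted all genes by 0.13, and the members' median was then 0.13. The cause of these changes was not tested, other than the fewer genes or arrays in the fit.

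WT and KO share replicate numbers in the labels. With the replicate number as a block limma called 0 members and 111 genes, and by the unadjusted rule 2 members were higher and 2 were lower. These were not the same genes as without the block: Lamp1 and Map1lc3b no longer passed, and Fundc1 did. Deviations from the group means of same-numbered arrays correlated at 0.113, a value that with 2 arrays per group is the same for both numbers by construction, and the labels do not say that a number marks a shared day or litter. Mean probe sets, single probe sets, and eBayes without trend or with robust settings called 0 members in each case.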

Other observations

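Ragulator and proton pump genes, from the related lists, were picked after their values were seen, so their counts are a description. Other genes of the same lists whose products act at the lysosomal membrane went both ways. Flcn (-0.22), Fnip1 (-0.27), Fnip2 (-0.20) and Rptor (-0.19) were among those with lower means in KO. Rraga (0.17), Rragb (0.47), Rragc (0.25) and Rragd (0.055) were among those with higher means. The products of the Ragulator genes Lamtor1 to Lamtor5 hold mTORC1 and AMPK signalling at the lysosome. In 5 of 5 both KO arrays lay above both WT arrays. Of the 11090 genes of median level or brighter, these 5 among them, 3819 had that order. The median difference was 0.51, and 3 were higher at an unadjusted p under 0.05 in limma, where 17.5% of those 11090 genes were. With the probe sets of each gene averaged, 2 were at such a p and the median was 0.38. Lamtor3 was at 7.20 and 7.30 in WT and at 7.85 and 7.69 in KO. Whichever array was left out, all 5 stayed higher, with medians from 0.41 to 0.57. None passed the adjusted threshold with all arrays, and 3 did without WT replicate 2.

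Of 13 proton pump genes, whose products acidify the lysosome, the mean in KO was higher for 12, as it was for 6041 of the 11090 genes as bright as the median or brighter, the median difference was 0.35, and 5 were at an unadjusted p under 0.05. Atp6v1g1 was at 8.16 and 8.54 in WT and at 8.92 and 8.87 in KO, and Atp6v0e at 8.81 and 9.20 against 9.57 and 9.54. Atp6v1f was the gene with a lower mean, at -0.054 ± 0.21 (SE). Without WT replicate 2 the count was 9 of 13, and without WT replicate 1 it was 13 of 13. The pump also works in other membranes of the cell, and markers of erythroblasts and neutrophils were higher on the same arrays, whose part in these differences was not tested.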
